A study of Mus musculus with 16 samples.

Results

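Figla, Nobox, Lhx8, Sohlh1 and Sohlh2 encode the transcription factors on which the formation of primordial follicles depends in the mouse. They were followed here in embryonic gonads that keep or lose their germ cells. All probes annotated to the 5 gene symbols were taken. Of the 5 genes, 4 had a probe and were among the 16582 genes tested, and Sohlh1, for which no annotated probe was found, was not analysed here. The 4 genes have 5 probes, since Lhx8 has 2 of them. Whole gonads of mouse embryos were measured on single-colour Agilent arrays, in 16 samples that form 4 groups of 4. The groups are female heterozygous (Nanos3+/-), female knockout (Nanos3-/-), male heterozygous (Nanos3+/-) and male knockout (Nanos3-/-), and each holds 1 sample from embryonic day (E) 12.5, 13.5, 14.5 and 15.5. The heterozygous gonads serve as controls, so all 16 samples carry at least 1 mutated Nanos3 allele and none is wild type. By its title each sample combines replicates 1 and 2, and the 4 days therefore serve as the replicates of a group (n = 4).

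FIGLA is a basic helix-loop-helix protein that pairs with a ubiquitous E protein and drives the zona pellucida genes. SOHLH1 and SOHLH2 are germ cell basic helix-loop-helix proteins used in both ovary and testis, and NOBOX and LHX8 are homeodomain proteins of the early oocyte, with Gdf9 and Pou5f1 among the known targets of NOBOX. In mice that lack any of these factors, oocytes are lost around birth or soon after. NANOS3 binds RNA and protects migrating primordial germ cells from dying.

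Because these factors are known to act on one another's genes in the mouse ovary, the promoters of the 4 measured genes are shown with the letters that basic helix-loop-helix and homeodomain proteins bind. Each sequence runs from 250 bases before to 50 bases after the annotated start, 5′ to 3′ on the strand of the gene, and comes from RefSeq on build GRCm38.p6. The search used CANNTG, the E-box core of basic helix-loop-helix proteins, with CACGTG as one form of it, and TAATTG and TAATTA, which homeodomain proteins bind. Both strands were searched. Capitals mark CANNTG. The Figla promoter (chr6:86016941-86017240, plus strand) held 4 such cores, the Nobox promoter (chr6:43309505-43309804, minus strand) 2, the Sohlh2 promoter (chr3:55181794-55182093, plus strand) 1 and the Lhx8 promoter (chr3:154330511-154330810, minus strand) 0.
Figla: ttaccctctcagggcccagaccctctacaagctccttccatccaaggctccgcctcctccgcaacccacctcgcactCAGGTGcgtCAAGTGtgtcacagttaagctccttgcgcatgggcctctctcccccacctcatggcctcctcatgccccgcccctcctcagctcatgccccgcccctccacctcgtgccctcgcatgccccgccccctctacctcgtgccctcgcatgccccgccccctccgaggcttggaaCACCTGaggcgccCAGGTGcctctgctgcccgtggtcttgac
Nobox: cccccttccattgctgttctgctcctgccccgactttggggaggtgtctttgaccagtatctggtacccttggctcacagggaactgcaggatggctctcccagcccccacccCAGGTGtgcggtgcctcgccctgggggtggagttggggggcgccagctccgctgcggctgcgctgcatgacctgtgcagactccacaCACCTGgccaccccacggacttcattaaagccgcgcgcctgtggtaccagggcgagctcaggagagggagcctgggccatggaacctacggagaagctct
Lhx8: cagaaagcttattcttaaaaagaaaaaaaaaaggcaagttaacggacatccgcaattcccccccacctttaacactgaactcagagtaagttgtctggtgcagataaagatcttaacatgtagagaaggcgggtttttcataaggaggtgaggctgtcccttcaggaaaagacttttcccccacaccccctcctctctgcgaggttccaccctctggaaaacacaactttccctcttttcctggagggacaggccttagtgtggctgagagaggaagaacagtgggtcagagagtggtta
Sohlh2: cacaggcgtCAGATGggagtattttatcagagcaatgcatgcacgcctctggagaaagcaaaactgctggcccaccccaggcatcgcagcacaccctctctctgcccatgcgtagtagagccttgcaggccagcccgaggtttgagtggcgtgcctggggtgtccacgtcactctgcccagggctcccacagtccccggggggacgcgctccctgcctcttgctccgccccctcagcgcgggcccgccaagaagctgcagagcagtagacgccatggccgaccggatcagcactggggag
The promoter of Sohlh1, which has no expression value here, held 5 cores, 3 of them CACGTG. Over all 32851 promoters of this length, 72.3% held at least 1 CANNTG, 17.6% at least 3 and 2.1% at least 5. CACGTG was in 7.15% of all promoters and, among the 5 genes, in that of Sohlh1. TAATTG and TAATTA were in 8.0% and 5.29% of all promoters and in 0 of the 5. A match is a run of letters and not a measured binding site.

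Values are log2 of the deposited ratio of a probe to its own typical signal, so they rank samples for one gene and never one gene against another. Weak signals had been set to a detection limit, and each probe is read here against the highest of its sample limits, called the limit below. Between 1556 and 11181 of the 41174 probes were at the limit in a sample. Nanos3 itself was lower in male knockouts (-2.55 ± 0.41, adjusted p = 0.00363), while in females the difference was -0.23 ± 0.41 (adjusted p = 0.709). Whether its probe lies in the deleted part is not known. Xist matched the sex in the titles, at -7.67 ± 0.88 in heterozygous males against females, although the descriptions of the female samples name male gonads. Of 11 germ cell markers, 10 were lower in female knockouts (median -6.86) and 11 in male knockouts (median -6.90), among them the RNA helicase gene Ddx4 (-7.75 ± 0.45 in females). Of all tested genes, 13.0% were called lower in female knockouts and 12.6% in male knockouts. The ± values are standard errors from limma, which draws each gene's spread over all groups and days toward a trend over all genes. For Figla, those of the knockout effects and of the sex difference in heterozygotes are larger than its same-day pairs alone would give. Adjusted p-values are from limma with Benjamini-Hochberg adjustment over the 16582 genes unless stated otherwise. A gene was called when its adjusted p was under 0.05.

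Figla was measured above the limit in 7 of the 16 samples, all of them heterozygous. In heterozygous females it stood at 3.12 at E12.5, 7.51 at E13.5, 8.74 at E14.5 and 7.79 at E15.5. In heterozygous males it was at the limit of 0.21 at E12.5 and reached 2.66, 3.29 and 3.79 on the following days. All 8 knockout samples were at the limit. The 2 heterozygous groups overlapped, since the female sample of E12.5 lay within the male range, but the male was below the female of the same day on 4 of 4 days. The group means were 6.79 ± 2.50 in heterozygous females and 2.49 ± 1.58 in heterozygous males (SD, n = 4 each).

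Lhx8, a LIM homeobox gene also known from forebrain neurons, had a similar distribution at its first probe, which was above the limit in the 8 heterozygous samples and in 0 of the 8 knockouts. Heterozygous females gave 1.47, 3.73, 4.41 and 5.36 from E12.5 to E15.5. Heterozygous males gave 0.48, 0.82, 0.49 and 1.75 on the same days, against a limit of -0.62. Females climbed at each step, and on 4 of 4 days the male lay below the female, by 1.99-fold at E12.5 and by 7.53-fold, 15.2-fold and 12.2-fold later. The second Lhx8 probe, with a limit of 0.35, gave 1.31, 2.60, 3.70 and 4.81 in heterozygous females. In heterozygous males it was at the limit at E12.5 and E13.5 and reached 1.43 and 1.38 at E14.5 and E15.5. Of the knockout samples 1 was above the limit, the female of E14.5 at 0.63. The probes of Lhx8 correlated with r = 0.955 across the 16 samples, and they differed on whether Lhx8 was above the limit in the 2 earliest male samples.

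Nobox was above the limit in all 16 samples, although the recovery would miss a limit reached by 1 sample alone. Heterozygous females stood at 0.91, 1.99, 3.48 and 4.21 from E12.5 to E15.5, and heterozygous males at 1.33, 2.49, 2.39 and 3.15. Female knockouts stood at -1.03, -2.41, -0.57 and -1.41, and male knockouts at -1.18, -2.04, -1.05 and -0.51. The knockout and heterozygous samples of a sex did not overlap, with gaps of 1.47 in females and 1.84 in males between the nearest samples. The sexes overlapped within each genotype.

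Sohlh2 was highest on the 2 early days in heterozygotes of both sexes. Heterozygous females stood at 3.87, 3.90, 2.41 and 1.98 from E12.5 to E15.5, and heterozygous males at 3.24, 3.01, 0.15 and -0.24. Female knockouts stood at -1.47, -0.63, -2.07 and -1.62, and male knockouts at -0.42, -0.65, -1.46 and -1.26. In females the genotypes were 2.61 apart at their nearest samples. In males the gap was 0.17, between the heterozygous sample of E15.5 and the knockout sample of E12.5.

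**Figure D1:**
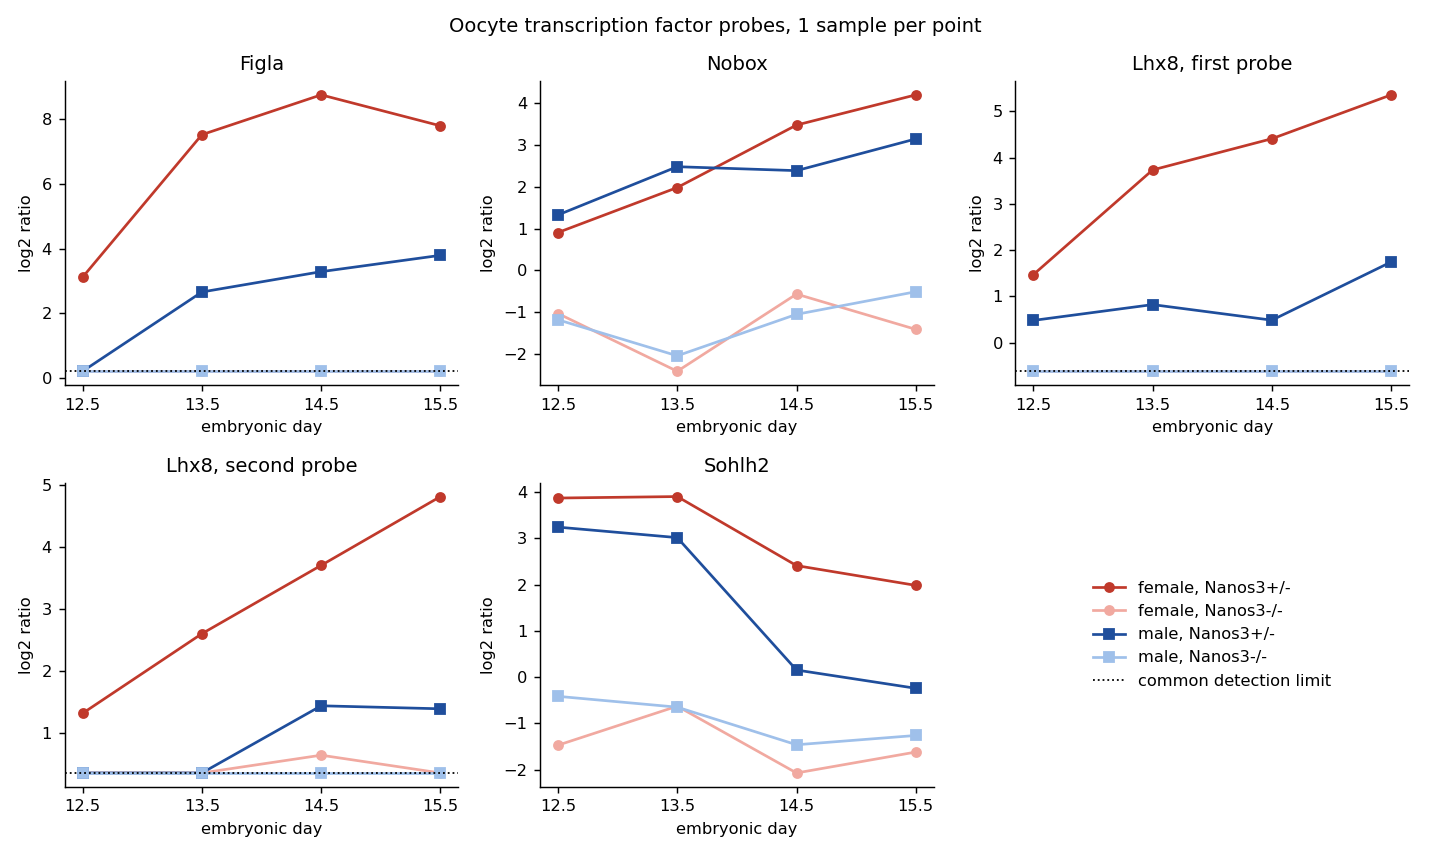
Log2 ratio (vertical axis) of each probe of Figla, Nobox, Lhx8 and Sohlh2 by embryonic day (horizontal axis) in the 4 groups, 1 point per sample, with the limit as a dotted line where one was recovered. Figla and Lhx8 lie on the limit in knockouts at the probe used for each gene, where points of both sexes coincide, while in heterozygotes Nobox is highest at E15.5 and Sohlh2 is lowest there.

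The comparison of knockout with heterozygous gonads asks which of these transcripts depend on germ cells. In females all 4 measured genes were lower in knockouts, against 13.0% of all tested genes called lower. Figla and Lhx8 passed the filter on dim genes only through heterozygous samples. The count, the lack of overlap and the median given below therefore describe the genes and do not by themselves speak for a shared response. Figla was at least 95.3-fold lower (-6.57 ± 2.15, adjusted p = 0.0440) and Lhx8 at least 20.6-fold lower (-4.36 ± 0.55, adjusted p = 0.00145), since all of their female knockout samples were at the limit. Sohlh2 fell by 4.49 ± 0.47, or 22.5-fold (adjusted p = 0.000675), and Nobox by 4.0 ± 0.53, or 16-fold (adjusted p = 0.00175). Each was lower on 4 of 4 days, and the groups did not overlap for any of the 4, as for 7.36% of all genes in this direction. The median of the 4 differences, in which Figla and Lhx8 enter as bounds, was -4.43, beside a median of 0.11 over all genes. In bulk gonads, fewer germ cells and less RNA per germ cell cannot be told apart.

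By day, the female difference of Nobox went from -1.94 at E12.5 to -5.62 at E15.5. Those of Figla (-2.90 at E12.5, -8.53 at E14.5) and Lhx8 (-2.09 at E12.5, -5.98 at E15.5) are bounds on each day, and their growth is that of the heterozygous value above a fixed limit. For Sohlh2 the difference was largest at E12.5, at -5.34, and smallest at E15.5, at -3.60. The second probe of Lhx8 was also lower in female knockouts (-2.69 ± 0.54, adjusted p = 0.00803 in a limma fit over all probes). The call of Figla was the weakest of the 4 and held in 5 of 13 alternative settings. Its adjusted p was 0.497 without E13.5, 0.126 without E14.5, 0.131 without E15.5 and 0.102 on the arrays as deposited, while the difference stayed between -7.80 and -5.92.

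In males 2 of the 4 genes were lower in knockouts, where 12.6% of all genes were called lower and the median difference was 0.12. Nobox fell by 3.54 ± 0.53, or 11.6-fold (adjusted p = 0.00296), and Sohlh2 by 2.49 ± 0.47, or 5.62-fold (adjusted p = 0.00632). Both were lower on 4 of 4 days. The Sohlh2 call was lost without E13.5 (-2.10, adjusted p = 0.0516) and without a term for day (adjusted p = 0.0544). Its male difference was -3.66 at E12.5 and -3.67 at E13.5, and then -1.62 and -1.02.

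Lhx8 was at least 2.83-fold lower in male knockouts, and its fitted difference of -1.50 ± 0.55 was not called (adjusted p = 0.0648). The call was made in 5 of 13 alternatives, among them without E12.5 (-1.64, adjusted p = 0.0229). At its second probe, with 2 of 4 heterozygous males and all male knockouts at the limit, the fitted male difference was -0.53 (adjusted p = 0.487). Figla was above the limit in 3 of the 4 heterozygous males and in no male knockout, with a fitted difference of -2.27 ± 2.15 (adjusted p = 0.439), and its groups met at the limit at E12.5. Nobox and Sohlh2 did not overlap between the genotypes in males, as 8.67% of all genes did not in this direction. Nor did the first Lhx8 probe, but it passed the filter only through heterozygous samples, with all knockouts at the limit. The second Lhx8 probe did overlap and was lower on 2 of 4 days.

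**Figure D2:**
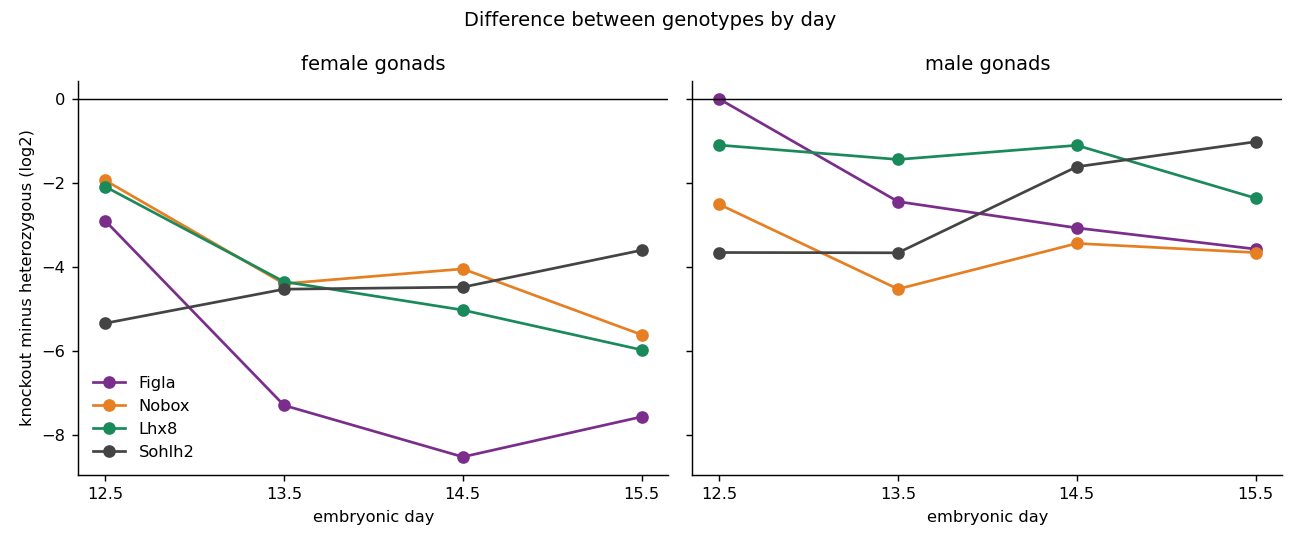
Knockout minus heterozygous log2 difference (vertical axis) by embryonic day (horizontal axis) for each measured gene, in females and in males, 1 point per pair of samples. The female differences of Figla, Lhx8 and Nobox are larger at E15.5 than at E12.5, and those of Sohlh2 are smaller at E15.5 than at E12.5 in both sexes. All knockout values of Figla and of the Lhx8 probe used were at the limit.

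The female and male knockout effects were compared directly in the same fit. The difference, male minus female, was 2.0 ± 0.67 for Sohlh2 (adjusted p = 0.168) and 0.47 ± 0.75 for Nobox (adjusted p = 0.787, 95% interval -1.25 to 2.18). For Figla (4.30 ± 3.04, adjusted p = 0.489) and Lhx8 (2.86 ± 0.78, adjusted p = 0.119) all knockouts were at the limit. Their values are therefore the difference between heterozygous males and females with its sign turned, and give nothing separate about the knockouts. By limma 0 of the 4 passed, 2 had an unadjusted p under 0.05 (Lhx8 and Sohlh2), and 0.874% of all genes passed.

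**Figure D3:**
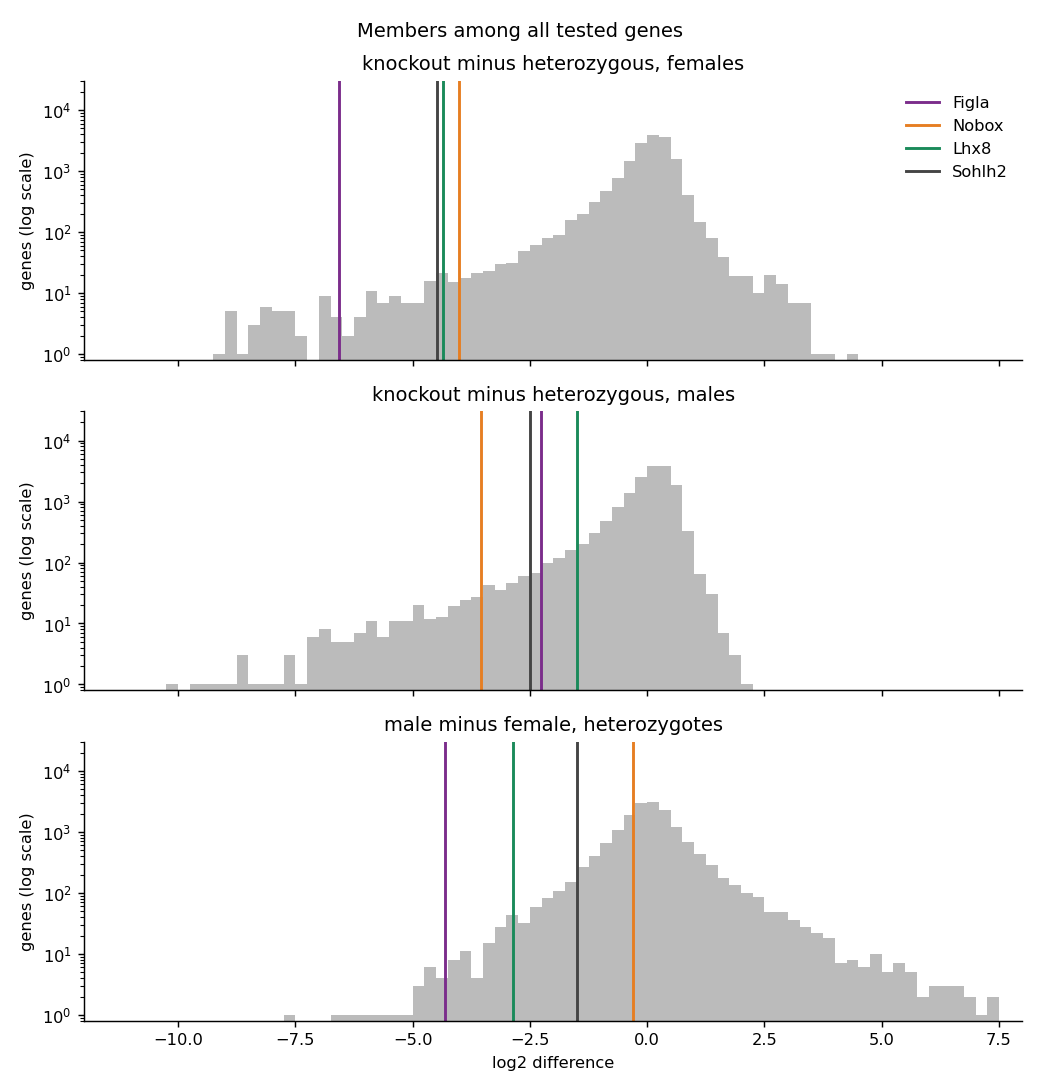
Number of tested genes (vertical axis, log scale) by log2 difference (horizontal axis) for knockout minus heterozygous in females, the same in males, and male minus female in heterozygotes, with the 4 measured genes as vertical lines. All 4 lines lie in the lower tail in female knockouts, whereas Nobox lies near the middle in the comparison of the sexes.

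Among heterozygotes, 3 of the 4 genes were lower in males than in females, where 12.1% of all genes were called lower. Figla differed most, at -4.30 ± 0.97 (adjusted p = 0.0124), with the female 28.9-fold above the male at E13.5, 43.8-fold at E14.5 and 15.9-fold at E15.5, and at least 7.47-fold above it at E12.5. Lhx8 differed by -2.86 ± 0.45 (adjusted p = 0.00239), a call kept in 14 of 14 alternatives, and its second probe by -2.23 ± 0.42 (adjusted p = 0.00690). All knockouts of the first Lhx8 probe were at the limit and added no scatter to the fit over all samples. The standard error of Lhx8 here may therefore be too small. Sohlh2 differed by -1.50 ± 0.34 (adjusted p = 0.0120), by -0.63 and -0.89 at E12.5 and E13.5 and by -2.26 and -2.23 at E14.5 and E15.5. Each of these was lower in the male on 4 of 4 days, but 0 of the 4 genes had sexes that did not overlap, against 7.77% of all genes.

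Nobox was the exception, at -0.31 ± 0.37 (adjusted p = 0.586, 95% interval -1.13 to 0.52). The male sample was above the female at E12.5 and E13.5, by 0.42 and 0.50, and below it at E14.5 and E15.5, by -1.09 and -1.06. The Figla call was kept in 7 of 14 alternatives. It was lost, among others, without E13.5 (-4.12, adjusted p = 0.546), E14.5 (-3.92, adjusted p = 0.290) or E15.5 (-4.40, adjusted p = 0.251). That of Sohlh2 was kept in 10 of 14 and lost, among others, without E14.5 (-1.25, adjusted p = 0.139) or E15.5 (-1.26, adjusted p = 0.113).

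In knockouts no sex difference passed the test. Nobox differed by 0.16 ± 0.37 (adjusted p = 0.826, 95% interval -0.66 to 0.98) and Sohlh2 by 0.50 ± 0.34 (adjusted p = 0.354, 95% interval -0.25 to 1.26). By limma 0 of these 2 passed and 0 had an unadjusted p under 0.05, against 18.0% of all genes called. No difference is given for Figla and the first Lhx8 probe, which were at the limit in all 8 knockouts. The order of the group means was therefore heterozygous females, heterozygous males, then both knockouts for Figla, Lhx8 and Sohlh2. For Nobox the 2 heterozygous groups did not differ beyond their spread, nor did the 2 knockout groups.

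Markers of meiotic germ cells and of other cells differed between these groups too. The summed ratio of 12 meiosis markers was 89.4 to 1219 in heterozygous females, 19.0 to 55.2 in heterozygous males, 2.67 to 5.07 in female knockouts and 2.23 to 3.49 in male knockouts. That of 8 pre-granulosa markers was 17.7 to 22.2 in heterozygous and 22.0 to 38.4 in knockout females, and 2.09 to 2.56 in heterozygous and 2.82 to 3.59 in knockout males. In knockouts 8 of these 8 supporting-cell genes were called lower in males than in females, where 18.0% of all genes were called in either direction. Summed erythroid markers rose with the knockout in females, from 1.69 to 4.57 in heterozygotes to 5.96 to 87.6 in knockouts. There 4 of 4 were called higher, beside 20.9% of all genes. In males they summed to 2.05 to 5.01 in heterozygotes and 3.93 to 7.17 in knockouts, with 1 of 4 called higher, beside 21.6%. By limma 0 of the 4 passed for a difference of the effect between the sexes, with an unadjusted p under 0.05 in 4. Neuronal markers, of interest because neurons express Lhx8, summed to 3.24 to 4.59 in heterozygous females and 3.64 to 4.45 in female knockouts, and to 4.76 to 12.5 and 3.78 to 15.3 in the males. Of the 4, Th (-2.30 ± 0.28) and Elavl4 (-1.12 ± 0.18) were lower in male knockouts (median -0.61), where 12.6% of all genes were called lower. Stmn2 was higher in female knockouts (0.59 ± 0.18), beside 20.9% of all genes. The effect on Th differed between the sexes (-2.23 ± 0.39, adjusted p = 0.0437), as it did for 0.874% of all genes. The part of these cells in the values of the 4 genes was not tested.

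To see whether the sexes still differed per unit of germ cell transcript, each gene was set against the mean log2 ratio of the 11 germ cell markers, in heterozygotes only. That mean was 1.69, 2.49, 2.38 and 1.94 in females from E12.5 to E15.5, and 1.27, 2.90, 3.69 and 3.61 in males. It is a transcript level and not a count of germ cells. From E13.5 on it was higher in males. In 2 of its 11 markers a higher slope in males than in females was called, beside 3.35% of all genes in either direction. A higher mean lowers the male values on this scale. On this scale Figla stood at 1.43, 5.02, 6.36 and 5.84 in females and at -1.05, -0.24, -0.40 and 0.18 in males, with no overlap. The first of these male values rests on a Figla signal at the limit. Lhx8 went from -0.22 through 1.24 and 2.03 to 3.42 in females, and was -0.79, -2.08, -3.20 and -1.87 in males.

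Sohlh2 began alike in both sexes on this scale, at 2.18 in females and 1.97 in males at E12.5. On the following days it was at 1.41, 0.03 and 0.04 in females and at 0.11, -3.54 and -3.86 in males. Nobox went from -0.78 and -0.50 to 1.11 and 2.26 in females, whereas in males it was 0.06, -0.42, -1.30 and -0.46. The male Nobox value exceeded the female one at E12.5 by 0.84 and was below it by -2.40 and -2.73 at E14.5 and E15.5.

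Relative to germ cell markers, the sexes differed by -5.04 for Figla (adjusted p = 0.00697), -3.60 for Lhx8 (adjusted p = 9.33e-06) and -2.24 for Sohlh2 (adjusted p = 0.0148). Nobox differed by -1.05 and did not pass (adjusted p = 0.348). Of all genes, 9.88% passed in either direction on this scale. In these fits, which used heterozygous samples only, limma took each spread from a trend over all genes. The p-values therefore do not reflect the gene's own spread and cannot be set beside the others.

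**Figure D4:**
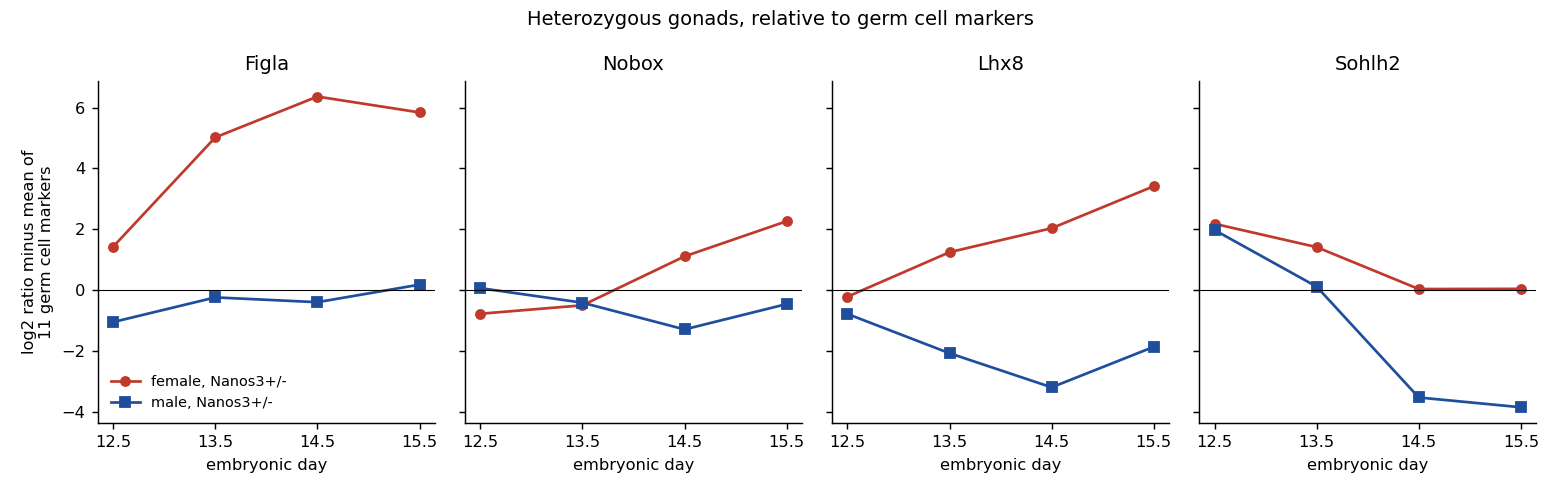
Log2 ratio of each gene minus the mean log2 ratio of 11 germ cell markers (vertical axis) by embryonic day (horizontal axis), in heterozygous females and males, 1 point per sample. Figla, Lhx8 and Nobox are higher at E15.5 than at E12.5 in females, and Sohlh2 is lower at E15.5 than at E12.5 in both sexes, reaching -3.86 in males.

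Change with age was fitted as a slope per day in heterozygotes. In females 2 genes rose, against 6.44% of all genes called rising. These were Lhx8, by 1.23 ± 0.18 per day (adjusted p = 0.00295), and Nobox, by 1.14 ± 0.25 per day (adjusted p = 0.0166). The slope of Figla was 1.52 ± 0.50 (adjusted p = 0.0761), with most of its increase between E12.5 and E13.5, and that of Sohlh2 was -0.72 ± 0.24 (adjusted p = 0.0833). All 4 had an unadjusted p under 0.05. The Nobox slope was called in 7 of 13 alternatives. It was not called, among others, without E12.5 (1.11, adjusted p = 0.192), without E14.5 (1.10, adjusted p = 0.0913) or without E15.5 (1.29, adjusted p = 0.203). The Lhx8 slope was called in 10 of 13 alternatives, and was not called, among others, without E12.5 (0.81, adjusted p = 0.183). All knockouts of its first probe were at the limit and added no scatter to the fit. The standard errors of the Lhx8 slopes may therefore be too small.

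In males 1 of the 4 genes was called falling with age, against 5.81% of all genes, and 0 were called rising. Sohlh2 fell by 1.33 ± 0.24 per day (adjusted p = 0.00454), a call kept in 10 of 13 alternatives. It was lost, among others, without E12.5 (-1.63, adjusted p = 0.0872) or E15.5 (-1.54, adjusted p = 0.158). The male slopes of Figla (1.14 ± 0.50, adjusted p = 0.134), Nobox (0.54 ± 0.25, adjusted p = 0.153) and Lhx8 (0.35 ± 0.18, adjusted p = 0.201) did not pass. The slopes of the sexes differed in 0 of the 4 genes by limma, with 1 unadjusted p under 0.05, that of Lhx8 (-0.89 ± 0.25, adjusted p = 0.0879), and 3.35% of all genes passed. Of the germ cell markers 4 of 11 rose and 1 fell in males, where no share of all genes called rising is given. Relative to them, the female slope of Figla was 1.46 (adjusted p = 0.0282, with 1.44% of all genes passing). On that scale the male slope of Sohlh2 was -2.11 (adjusted p = 6.80e-07, with 55.4% passing). Both p-values rest on a spread taken from a trend over all genes and not on that of the gene.

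The genes most like each of the 4 were ranked by Pearson's r of log2 values across the 16 samples, which all share the loss of germ cells in 8 of them. Those most like Figla were Tex16 (r = 0.993), Taf7l2 (0.991), Zfp541 (0.990), the meiotic recombination gene Meiob (0.986) and the meiosis gene Mei1 (0.979). Lhx8 shared Zfp541 (0.982), Tex16 (0.981) and Meiob (0.971) with it, followed by Figla itself (0.970) and Majin (0.966), which attaches meiotic telomeres to the nuclear envelope. Sohlh2 was closest to Mir9-3hg (0.968), Cdk5rap1 (0.947), the chromatin remodeller gene Hells (0.945), Alg13 (0.944) and Ppp3cb (0.939). Nobox was closest to Magea3 (0.960), Zfp507 (0.960), Pemt (0.958), Pdha2 (0.956) and Mlc1 (0.955). Within the 8 heterozygous samples alone, Figla and Lhx8 kept r = 0.93, whereas Sohlh2 had r = 0.03 with Figla, 0.13 with Lhx8 and -0.51 with Nobox.

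Of 19 known partners, targets and neighbours of the oocyte factors in their network, 14 were tested. In female knockouts 2 were lower and 3 higher (median -0.003), where 13.0% of all genes were called lower and 20.9% higher. Taf4b, a germ cell subunit of the general transcription factor TFIID, was lower (-3.59 ± 0.24, adjusted p = 7.16e-05), and so was the pluripotency factor gene Pou5f1 (-4.27 ± 0.97, adjusted p = 0.0117). Rspo2, Foxo3 and Dynll1 were higher, by 1.32, 0.50 and 0.29, calls that were all lost on the arrays as deposited, where 0 were higher and 2 lower. Taf4b stood at 0.48, 1.41, 2.62 and 1.67 in heterozygous females and at -2.34 to -1.66 in female knockouts.

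Gdf9, an oocyte growth factor gene, had nearly the same values in both female groups. It stood at -0.26, 1.20, 2.39 and 2.01 in heterozygous females and at -0.27, 1.57, 2.13 and 2.10 in female knockouts, a difference of 0.05 ± 0.19 (adjusted p = 0.879, 95% interval -0.40 to 0.49). Its rise with age in heterozygous females (slope 0.80 per day, adjusted p = 0.0436) passed the test. The female knockouts were likewise lowest at E12.5, but their slope was not tested. Kit, the receptor gene of germ cells, was at -0.92 in female knockouts (adjusted p = 0.131). The zona pellucida genes Zp1 (0.09, adjusted p = 0.760) and Zp3 (-0.22, adjusted p = 0.787) did not pass in females, and Zp2, with Tbpl2, Bmp15, Nlrp5 and Oosp1, was at the limit in too many samples to be tested.

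In male knockouts 7 of these 14 genes were lower and 2 higher (median -1.04), where 12.6% of all genes were called lower and 21.6% higher. The counts were 6 lower and 0 higher on the arrays as deposited. The largest called differences were those of Pou5f1 (-7.60 ± 0.97), the oocyte and early embryo genes Nlrp14 (-4.55 ± 1.03) and Padi6 (-3.60 ± 0.75), and Rspo2 (-1.79 ± 0.42). Zp1 was at the limit of -0.41 in heterozygous females on 3 of 4 days and reached 0.09 at E15.5, whereas heterozygous males stood at 0.63, 1.84, 2.17 and 1.6. Male knockouts stood at -0.24 to 0.12, a difference of -1.67 ± 0.19 (adjusted p = 0.00104). Among heterozygotes Zp1 was therefore higher in males than in females (1.85 ± 0.27, adjusted p = 0.00161), the reverse of Figla, which is known to drive it in growing oocytes.

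**Figure D5:**
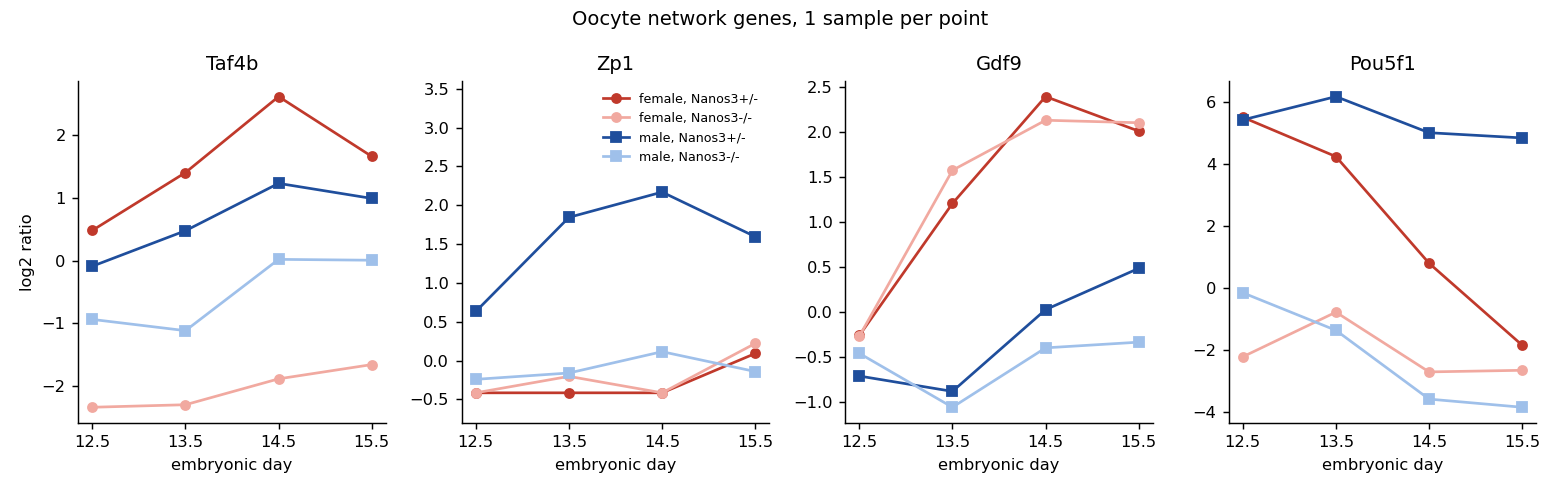
Log2 ratio (vertical axis) of Taf4b, Zp1, Gdf9 and Pou5f1 by embryonic day (horizontal axis) in the 4 groups, 1 point per sample. Taf4b is below its heterozygous level in female knockouts at each day, Zp1 is highest in heterozygous males, Gdf9 is lowest at E12.5 in female gonads of both genotypes, and Pou5f1 declines in heterozygous females.

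The E proteins that pair with FIGLA, and the ID proteins that sequester them, were all measured (7 of 7 tested). Tcf3, Tcf4 and Tcf12 passed in neither knockout comparison. In female knockouts Id1 (-0.46 ± 0.13) and Id4 (-0.45 ± 0.15) were lower and Id2 higher (0.49 ± 0.14), with a list median of 0.13 and shares over all genes of 13.0% lower and 20.9% higher. In male knockouts Id1, Id2 and Id3 were higher, by 0.65, 0.68 and 0.56 (median 0.20), where 21.6% of all genes were called higher. With quantile normalization the same genes were called in both sexes, and on the arrays as deposited 0 of the 7 were called in either sex. There the median difference of all genes was 0.0013 in females and 0.0087 in males, against 0.11 and 0.12 with the scaling used here.

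Of the LIM homeobox relatives of Lhx8, 10 of 11 were tested. In female knockouts 4 were lower and 0 higher (median -0.77), against 13.0% and 20.9% of all genes. The 4 were Isl2 (-4.64 ± 0.61), Lmx1b (-2.06 ± 0.21), Lhx2 (-1.57 ± 0.23) and Lhx4 (-1.17 ± 0.27). In male knockouts, where the shares over all genes were 12.6% and 21.6%, Isl2 (-4.96 ± 0.61), Lhx1 (-2.66 ± 0.81) and Lhx2 (-1.52 ± 0.23) were lower, while Lhx9, which the gonad needs to form, was higher by 0.52 (adjusted p = 0.0208), a call not made on the arrays as deposited. The median of the 10 was -0.84 in males, and with quantile normalization 6 rather than 3 were called lower. By limma, 0 of the 10 had knockout effects that passed as different in males and females (unadjusted p under 0.05 in 3).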

How the data were processed

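Per the labels, total gonad RNA was amplified and labelled with Cy3. Per the submitters' processing notes the tool was Agilent Feature Extraction 9.5. The deposited values are linear ratios centred per probe. How the authors scaled and centred them and combined replicates is not given in the sources used here, and the ratio nature and limit were read from the values.

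The limit of each sample was recovered from ratios shared by many probes (tolerance 2e-04, log2). Arrays were scaled to 1 75th percentile over 28360 probes never at the limit (-0.33 to 0.26, log2). Values of a probe below its highest sample limit were set to it (limits differed by up to 1.08), and log2 was taken. Of 41267 probes 93 controls were left out, and 32664 have 1 gene symbol (45 have several, 8465 none). Genes above the limit in at least 4 samples were tested. The design assumed intensities, which the files do not hold, so the floor and filter were adapted. Of several probes, the one at the limit in the fewest samples stood for the gene.

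limma 3.58.1 in R 4.3.3 (lmFit, eBayes with trend) was fitted to all 16 samples, with a term per sex and day (knockout effects) or genotype and day (sex effects), both with 6 residual degrees of freedom, or with slopes (8), and was tested on simulated data. Same-day samples deviated together from their group means (r 0.478 to 0.758 between genotypes, 0.187 to 0.641 between sexes). The days are the replicates, so p-values treat changes between days as error and cover no repeat of a day. Arrays give no counts, so their number limits the precision.

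The genes, lists and tests were chosen with earlier results of these data known. Named are the factors, the 5 genes most like each, and of each list the largest called differences and a preset few. Alternatives changed the scaling, limit, filter, probe rule, array weights, block, samples and days.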

Additional observations from a re-analysis of the deposited data

Results flagged for a closer look

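The knockout effect differed between the sexes, male minus female, for Taf4b (2.43), Zp1 (-1.75), Id1 (1.11) and the neuronal marker Th (-2.23), by limma with an adjusted p under 0.05. Taf4b was lower in knockouts of both sexes and fell further in females. On the arrays as deposited Taf4b passed (2.43, adjusted p = 0.0341) and Zp1 (-1.91, adjusted p = 0.0671) and Id1 (1.11, adjusted p = 0.0988) did not.

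The slope per day differed between heterozygous males and females for Pou5f1 (2.26), Nlrp14 (2.09), Padi6 (1.83), the LIM homeobox gene Lhx5 (1.63) and Id2 (-0.79). By limma, Nlrp14 did not pass with quantile normalization (1.64, adjusted p = 0.170), nor Id2 on the arrays as deposited (-0.81, adjusted p = 0.112). Pou5f1, Padi6 and Lhx5 passed under both. The slope of Pou5f1 was -2.55 in females (adjusted p = 0.00121), and its male slope was -0.29 (adjusted p = 0.509). Padi6 rose in males by 1.47 per day, and its female slope was -0.36 (adjusted p = 0.284).

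In 2 groups 1 sample stood apart by Dixon's test. Zp1 in heterozygous females was at the limit in 3 samples and above it in the sample of E15.5, which gives a gap over range of 1. With 3 samples at the limit any higher value would give this, so the flag tells nothing about that sample. Id1 had a low sample among male knockouts (0.953). Among groups without values tied at the limit, chance flags about 1 in 20.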

How the results depend on the processing

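The knockout effects of Nobox in both sexes, of Lhx8 and Sohlh2 in females, and the sex difference of Lhx8 in heterozygotes kept their direction and call in all alternatives run for them. Leaving out each day in turn gave 3 to 4 of the 4 genes called in female knockouts, 1 to 3 in male knockouts, 0 to 1 for the difference between these effects, 1 to 3 for the sex difference in heterozygotes, 0 for that in knockouts, 0 to 2 for each slope and 0 for their difference. With no replicate block, meaning no term for day, 1 gene was called in male knockouts and 1 for the sex difference in heterozygotes, and the number called in female knockouts stayed at 4. With array weights 1 gene, Lhx8, passed for the difference of the knockout effects, a value that rests on its heterozygous samples alone, and 4 for the male slope. With the mean of all probes 1 passed for the slope difference and 2 for the male slope, and on the arrays as deposited 2 passed for the male slope. With only the group concerned fitted, 0 passed for either slope, where fewer samples enter, and relative to germ cell markers 1 passed for the female slope.

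Of the values of single genes under alternatives, 332 kept sign and call, 16 gained the call, 33 lost it and 5 changed sign, none of these called. Those were the Figla slope difference (-1.28 to 0.43 when each day was left out), the Nobox difference of knockout effects (-0.031 to 0.81) and its sex difference in knockouts (-0.088 to 0.37), and, relative to germ cell markers, the male slopes of Lhx8 (-0.44) and Nobox (-0.25). The cause was not tested. The limit bounds Figla and Lhx8 in knockouts, and with 4 days per group intervals of differences were wide.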
